A study of Mus musculus with 39 samples.

Results

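Breast tissue of mice carrying the elements SB, Tg and k5Cre (called triple K5Cre here) was compared with lesions of mice labelled only bcat +/- (called Bcat-only here). The triple K5Cre group was every array whose genotype label reads Triple (SB/Tg/k5Cre), 8 breast arrays from 8 animals. The Bcat-only group pooled 5 arrays from 3 animals, numbered 1 to 5. Arrays 1 to 3 were the ventral tumours of 1 animal, and arrays 4 and 5 were masses, labelled breast, of 2 animals. These 13 arrays were taken, by label alone, from a series of 39 whose title names Sleeping Beauty. The other 26 arrays, from quadruple (SB/Tg/K5Cre/Bcat) breast, triple Bcat (SB/Tg/Bcat) breast and normal mammary gland, entered the model to help estimate the spread between arrays. The animals of triple K5Cre arrays 2 and 3 also gave 2 of the normal mammary glands, and because the model links arrays of an animal those glands carry some weight in the fitted differences.

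The labels do not spell out SB, Tg or Bcat, give no age or sex, and do not say whether the triple K5Cre breast samples were tumours. The titles of all 5 Bcat-only arrays carry the tag C57 and no title of a triple K5Cre array does. The transposon elements, K5Cre, Bcat, the title tag and the kind of lesion therefore changed together, and their contributions cannot be told apart. No label says whether arrays of a group were processed together. P-values measure the spread between these samples, and the 3 ventral tumours share an animal.

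Sleeping Beauty is a DNA transposon which, when its transposase is present, moves to new genomic positions and can activate or disrupt the genes it lands in. K5Cre is the usual name of a Cre recombinase driven by the promoter of keratin 5, a keratin of the basal layer of mammary and skin epithelium. Beta-catenin, the product of Ctnnb1, links cadherins to the cytoskeleton at cell junctions and, when it is not degraded, enters the nucleus and activates transcription of Wnt target genes. In the mammary gland Wnt signalling acts on basal and progenitor cells, and sustained beta-catenin activity is known to turn mammary epithelium towards epidermal and hair-like fates.

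The promoter windows of 6 genes that differed between the groups are shown, as 3 contrasting pairs. Mia and Irx2 were higher in triple K5Cre and called in every fit that left out 1 array. Akr1c19 and Fgfbp3 had the smallest p-values among lower genes. Prl8a9 and Prl8a6 are placental hormone genes of 1 family that were both lower. Each window runs from 250 bases before to 50 after the start of the gene in RefSeq, build GRCm38.p6, and is printed 5′ to 3′ on the strand of the gene. Capitals mark matches to TATAAA or AACAAT on either strand, so that TTTATA is a TATAAA match on the other strand. CTTTGA was also searched on both strands and was not in these 6 windows.
Mia (chr7:27181100-27181399, minus strand): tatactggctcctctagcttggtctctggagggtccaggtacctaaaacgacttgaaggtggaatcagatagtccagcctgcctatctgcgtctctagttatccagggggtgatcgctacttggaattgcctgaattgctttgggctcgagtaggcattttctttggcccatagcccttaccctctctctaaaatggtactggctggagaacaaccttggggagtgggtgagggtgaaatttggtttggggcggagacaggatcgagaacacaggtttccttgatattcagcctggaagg
Irx2 (chr13:72628570-72628869, plus strand): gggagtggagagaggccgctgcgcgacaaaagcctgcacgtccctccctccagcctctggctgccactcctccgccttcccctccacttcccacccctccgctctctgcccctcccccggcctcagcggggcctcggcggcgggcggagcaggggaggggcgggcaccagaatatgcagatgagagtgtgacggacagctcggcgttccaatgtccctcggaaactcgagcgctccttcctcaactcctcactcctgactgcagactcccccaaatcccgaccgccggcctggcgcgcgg
Akr1c19 (chr13:4233490-4233789, plus strand): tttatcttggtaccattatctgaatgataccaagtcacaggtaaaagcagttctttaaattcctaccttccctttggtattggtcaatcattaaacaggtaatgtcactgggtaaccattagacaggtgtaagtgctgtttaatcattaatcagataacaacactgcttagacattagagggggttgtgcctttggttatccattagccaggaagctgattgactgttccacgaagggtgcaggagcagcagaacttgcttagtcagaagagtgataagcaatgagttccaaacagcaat
Fgfbp3 (chr19:36919550-36919849, minus strand): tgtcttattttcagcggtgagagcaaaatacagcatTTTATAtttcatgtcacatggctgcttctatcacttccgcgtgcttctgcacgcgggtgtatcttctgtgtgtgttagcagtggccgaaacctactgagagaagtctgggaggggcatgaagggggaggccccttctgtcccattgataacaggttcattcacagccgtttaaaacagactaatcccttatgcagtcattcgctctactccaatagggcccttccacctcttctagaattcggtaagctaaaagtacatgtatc
Prl8a9 (chr13:27564557-27564856, minus strand): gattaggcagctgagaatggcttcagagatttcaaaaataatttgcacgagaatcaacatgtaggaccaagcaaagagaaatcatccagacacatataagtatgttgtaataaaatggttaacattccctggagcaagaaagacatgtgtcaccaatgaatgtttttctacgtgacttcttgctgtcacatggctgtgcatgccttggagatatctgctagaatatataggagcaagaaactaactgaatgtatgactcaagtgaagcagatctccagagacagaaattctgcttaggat
Prl8a6 (chr13:27438639-27438938, minus strand): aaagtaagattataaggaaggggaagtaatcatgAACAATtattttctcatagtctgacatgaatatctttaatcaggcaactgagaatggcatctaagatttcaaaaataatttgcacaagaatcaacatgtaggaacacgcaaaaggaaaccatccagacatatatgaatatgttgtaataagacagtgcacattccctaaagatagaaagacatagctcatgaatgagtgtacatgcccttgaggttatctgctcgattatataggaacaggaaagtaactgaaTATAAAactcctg

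The Fgfbp3 window held 1 TATAAA match, and the Prl8a6 window held 1 TATAAA and 1 AACAAT match. The other 4 windows held no match to the 3 motifs. The longest stretch that the Prl8a9 and Prl8a6 windows share letter for letter was 22 bases. Of the measured genes, 14453 had a window in the RefSeq table, among them 177 of those higher and 202 of those lower in triple K5Cre by the model described below. TATAAA, the core of the TATA box, was in 6.21% of the windows of higher genes, 15.8% of those of lower genes and 9.87% of all windows. CTTTGA, the core letters of Tcf/Lef sites, was in 9.04% of higher, 11.9% of lower and 13.6% of all windows. AACAAT, a core often seen in Sox sites, was in 3.95% of higher, 9.41% of lower and 7.27% of all windows. Matches were counted anywhere in a window and on either strand, so a TATAAA match need not be a TATA box. These shares describe the letters of the windows, and no binding was measured.

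The values are log2 RMA values, in which a difference of 1 is a change of 2-fold. They were compared with limma for 18194 genes, each represented by its brightest probe set, with the animal as a random block, and a gene counted as called where its adjusted p (Benjamini-Hochberg) was under 0.05. By this rule 481 genes, 2.64% of those tested, differed between triple K5Cre and Bcat-only. Of these 227 (1.25%) were higher and 254 (1.40%) were lower in triple K5Cre. These shares are the background for the counts of called list and family members given below. The lower end held the larger changes, with 87 genes lower by at least 4-fold against 30 higher, and 18 lower by at least 16-fold against 2 higher. All 8 triple K5Cre arrays lay on 1 side of all 5 Bcat-only arrays for 944 of all genes (5.19%), 597 of them above (3.28%) and 347 below (1.91%). Of the 481 called genes this held for 313. The median difference over all genes was 0.02. Correlations over genes were 0.902 to 0.983 between pairs of triple K5Cre arrays and 0.966 to 0.986 between pairs of Bcat-only arrays, so that the triple K5Cre samples varied more among themselves.

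The number of calls depended on single arrays. It was 64 without Bcat-only array 4, and 295, 268 and 246 without Bcat-only arrays 1, 2 and 5. It was 313, 206 and 222 without triple K5Cre arrays 2, 4 and 5, and 868 without triple K5Cre array 7. No call changed sign in any of these fits. A set of 50 genes, 11 higher and 39 lower, was called in all 13 fits that each left out 1 array. Where the text gives a highest adjusted p, it is the largest over those 13 fits, with the array left out. Without Bcat-only array 4 the calls of 46 of the 79 called genes listed by name were lost. With each animal as a single mean 18 of these 79 were lost, with adjusted p-values of 0.0508 to 0.0903. They were Bcl2l15, Calcb, Cdk5rap1, Col9a3, Cxcr2, Epha7, Kctd14, Nusap1, Olr1, Padi3, Phlda1, Plekhb1, Plppr4, Prl7a1, Rfc4, Slc44a3, Sntb1 and Sox10.

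Ctnnb1 itself gave different answers from its 3 probe sets. On the brightest, 1420811_a_at, triple K5Cre arrays were at 12.65 to 13.39 (median 12.92), against 12.75, 12.69, 12.88, 12.71 and 12.88 in Bcat-only arrays 1 to 5. These ranges overlapped, and the difference of 0.17 ± 0.14 (SE) was not called (adjusted p = 0.536). On 1450008_a_at triple K5Cre arrays 1 to 8 were at 10.40, 10.03, 10.21, 10.80, 11.62, 10.51, 10.58 and 10.72, against 12.41, 12.60, 12.74, 12.90 and 12.67 in Bcat-only arrays. On 1430533_a_at triple K5Cre arrays were at 7.5, 7.55, 7.38, 8.54, 9.30, 8.23, 8.12 and 8.30, against 11.29, 11.73, 12.02, 12.13 and 11.76 in Bcat-only arrays. All 8 triple K5Cre arrays were below all 5 Bcat-only arrays on both of these probe sets, and triple K5Cre array 5 was the closest on each.

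A limma fit of all 34958 probe sets with 1 gene, added after the data were seen, called 835 of them (2.39%). In it 1450008_a_at was lower in triple K5Cre by 4.14-fold (log2 difference -2.05 ± 0.43, adjusted p = 0.0111). Probe set 1430533_a_at was lower by 12.6-fold (log2 difference -3.65 ± 0.68, adjusted p = 0.00492) and ranked 36 by p among all probe sets. With the masses as the only Bcat-only arrays the differences were -2.15 and -3.78, and with the ventral tumours as the only ones -1.94 and -3.52, with adjusted p-values of 0.0715 to 0.25 in these smaller fits. The probe sets of Ctnnb1 differed from each other by up to 3.82 in this contrast. By that range Ctnnb1 ranked 3 among 9012 genes with several probe sets, whose median range was 0.25. Which part of the Ctnnb1 transcript each probe set reads was not determined here.

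**Figure D1:**
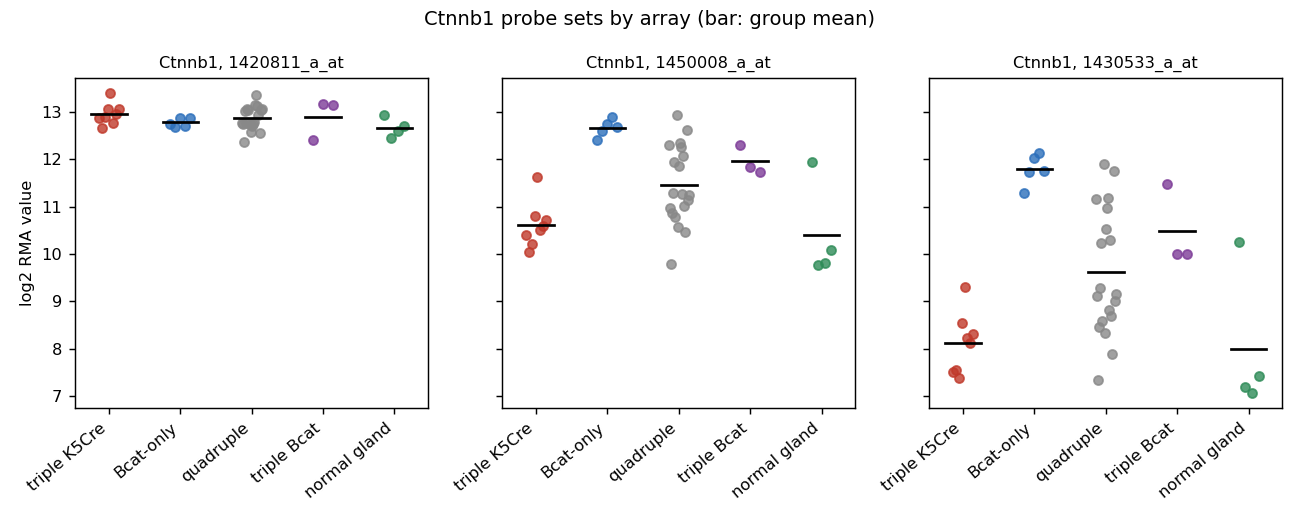
Log2 RMA value (vertical axis) of the 3 Ctnnb1 probe sets in each array, with triple K5Cre left of Bcat-only and the other groups of the series beside them; each point is an array and bars are group means. On 1430533_a_at triple K5Cre arrays sit between 7.38 and 9.30 and Bcat-only arrays between 11.29 and 12.13, while on 1420811_a_at both groups sit near 13.

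The other groups of the series covered both levels on 1430533_a_at. Triple Bcat array 1 was at 11.47 and the other 2 were near 9.99. The normal gland of a triple Bcat animal was at 10.26, and those of a quadruple animal and 2 triple K5Cre animals were at 7.18, 7.07 and 7.43. Of the 19 quadruple arrays 11 were below the highest triple K5Cre array, 2 were above the lowest Bcat-only array and 6 lay between.

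Wnt pathway genes other than Ctnnb1 had small median differences as lists. None of 20 measured Wnt target genes was called (median difference 0.14, lowest adjusted p 0.0958). The list mean of the targets was 5.91 to 9.30 in triple K5Cre and 6.66 to 8.01 in Bcat-only, with 2 triple K5Cre arrays above and 4 below the Bcat-only range. Axin2, a feedback inhibitor that marks Wnt activity, was at 5.29 to 9.48 (median 7.31) in triple K5Cre, against 7.65, 7.74, 7.90, 6.52 and 8.86 in Bcat-only arrays (difference -0.50 ± 0.75, adjusted p = 0.762). Lef1, a nuclear partner of beta-catenin, was at 8.32 in triple K5Cre array 5 and 4.44 to 5.02 in the other 7, against 4.81 to 5.84 in Bcat-only (-0.11 ± 0.59, adjusted p = 0.949). The difference of Lef1 turned positive, at 0.09, without Bcat-only array 5. The 2 targets of smallest p were Dkk1, a secreted Wnt antagonist, and Myc. Dkk1 was at 3.38 to 3.71 in triple K5Cre, against 7.45, 8.11, 7.51, 3.80 and 9.54 in Bcat-only arrays (-3.58 ± 1.25, adjusted p = 0.0958). The groups did not overlap for Dkk1, but Bcat-only array 4 was close to the triple K5Cre arrays.

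The called Wnt genes were a ligand and a secreted modulator. Wnt9a, 1 of 15 ligands, was at 5.05 to 7.53 (median 5.71) in triple K5Cre, against 7.82, 8.35, 9.10, 8.34 and 7.81 in Bcat-only arrays. It was lower by 5.26-fold (-2.40 ± 0.50, adjusted p = 0.01), with the groups not overlapping and a highest adjusted p of 0.0514 without Bcat-only array 4. Sfrp4, a Frizzled-related protein that binds Wnts and 1 of 23 modulators and receptors, was at 5.64 to 7.32 (median 6.38) in triple K5Cre, against 7.19, 8.63, 9.08, 6.92 and 7.96 in Bcat-only arrays. It was lower by 2.96-fold (-1.57 ± 0.35, adjusted p = 0.0156) and was called in all 13 fits. Ryk, a Wnt co-receptor, and Prickle2, a planar polarity protein, were named after their values were seen, and both were lower without overlap. Ryk differed by -0.93 ± 0.19 (adjusted p = 0.0069) and Prickle2 by -2.19 ± 0.48 (adjusted p = 0.0131). The median difference was -0.17 over the ligands and -0.17 over the modulators and receptors. The groups did not overlap for 2 of the 15 ligands and 5 of the 23 modulators and receptors, against 5.19% of all genes. None of the 9 genes of beta-catenin and the adherens junction was called on its brightest probe set.

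Col9a1 and Mia had the largest rises over Bcat-only among the genes named. Their means in normal gland were 8.91 and 8.59, against 9.30 and 10.05 in triple K5Cre. Mia, a secreted protein of cartilage and melanoma cells, was at 7.83 to 12.03 (median 9.96) in triple K5Cre, against 4.73, 4.12, 5.44, 6.68 and 5.34 in Bcat-only arrays. The groups did not overlap, and Mia was higher by 25.2-fold (4.65 ± 1.04, adjusted p = 0.0151, highest 0.0405 without Bcat-only array 5). Col9a1, a chain of the cartilage collagen IX, was at 6.77 to 12.55 (median 8.81) in triple K5Cre, against 3.31, 5.32, 5.51, 3.6 and 5.02 in Bcat-only arrays. It was higher by 28-fold (4.81 ± 1.24, adjusted p = 0.0315), with a highest adjusted p of 0.123 without Bcat-only array 4. Col9a3, another chain, was higher by 9.91-fold (3.31 ± 0.80, adjusted p = 0.0233, highest 0.0788 without Bcat-only array 4). The third chain, Col9a2, named after its values were seen, did not overlap between groups but was not called (1.56 ± 0.50, adjusted p = 0.0722).

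Several transcription factors were higher. Irx2, an Iroquois homeobox factor, was at 9.44 to 10.90 (median 10.28) in triple K5Cre, against 7.15, 7.54, 7.61, 7.48 and 8.52 in Bcat-only arrays. It was higher by 5.78-fold without overlap (2.53 ± 0.46, adjusted p = 0.00275) and stayed called in all 13 fits, with a highest adjusted p of 0.0209. Irx1, its neighbour on chromosome 13, was at 9.22 to 11.55 (median 10.43) in triple K5Cre, against 5.81, 6.85, 7.57, 7.79 and 7.47 in Bcat-only arrays. It too did not overlap (3.18 ± 0.72, adjusted p = 0.017, highest 0.0514 without Bcat-only array 4). Irx4 and Irx5, named after their values were seen, were not called (1.79 ± 0.77 and 1.17 ± 0.46, adjusted p = 0.18 and 0.138). Sox10, a factor of neural crest and of mammary progenitors, was at 7.51 in triple K5Cre array 7 and at 9.46 to 11.41 in the other 7, against 6.97, 6.79, 7.13, 7.49 and 8.16 in Bcat-only arrays (2.89 ± 0.75, adjusted p = 0.0323, highest 0.0997 without Bcat-only array 4). Trps1 and Nfib, named after their values were seen, are factors expressed in mammary epithelium, and were higher by 4.79-fold and 4.64-fold without overlap (adjusted p = 0.0324 and 0.0177). Without Bcat-only array 4 their adjusted p-values were 0.154 and 0.069.

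Kit, Epha7 and Shisa2 were also higher than in Bcat-only. Their normal gland means were 10.41, 5.62 and 7.6, against 10.27, 7.09 and 7.85 in triple K5Cre. Kit, the receptor tyrosine kinase of luminal progenitors, was at 8.56 to 11.56 (median 10.46) in triple K5Cre, against 6.76, 7.29, 8.18, 8.08 and 7.82 in Bcat-only arrays (2.57 ± 0.69, adjusted p = 0.0389, highest 0.0975 without Bcat-only array 4). Epha7, an ephrin receptor, was at 3.99 in triple K5Cre array 7 and at 6.55 to 8.26 in the other 7, against 2.83 to 4.40 in Bcat-only (3.25 ± 0.88, adjusted p = 0.0411, highest 0.12 without Bcat-only array 4). Shisa2, whose Xenopus relative holds back Frizzled and FGF receptors, was at 6.58 to 9.84 (median 7.70) in triple K5Cre, against 3.13, 3.44, 4.43, 4.54 and 4.70 in Bcat-only arrays. It was higher by 12.9-fold without overlap (3.69 ± 0.78, adjusted p = 0.0109) and was called in all 13 fits. Atp6v1b1, a proton pump subunit, was higher by 12.2-fold without overlap (adjusted p = 0.0315, highest 0.129 without Bcat-only array 4). Plekhb1, Plppr4, Slc44a3 and Kctd14 were also higher without overlap, by 9.42-, 8.57-, 8.29- and 7.85-fold. Emid1 and Sntb1, a syntrophin, were higher by 6.71- and 6.52-fold, with triple K5Cre array 7 inside the Bcat-only range for both. Without Bcat-only array 4 none of these last 6 genes was called (adjusted p = 0.0602 to 0.144). Normal gland means of Atp6v1b1, Plekhb1, Plppr4, Slc44a3, Kctd14, Emid1 and Sntb1 were 9.31, 10.04, 5.24, 7.54, 8.72, 7.59 and 9.38. Their triple K5Cre means were 8.35, 9.49, 6.8, 7.32, 9.63, 9.43 and 9.45.

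**Figure D2:**
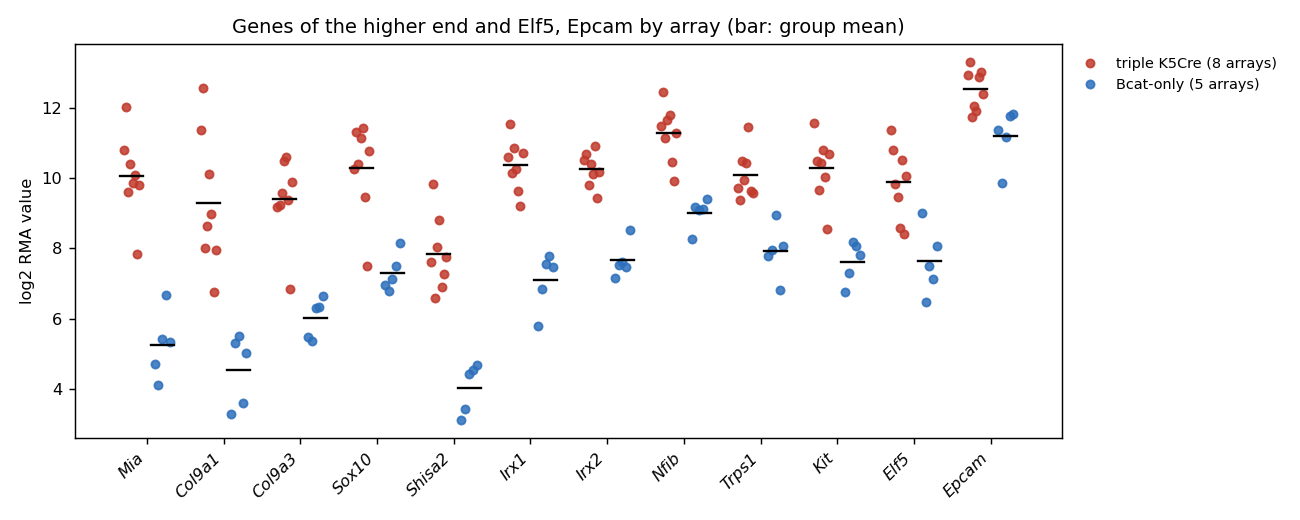
Log2 RMA value (vertical axis) in each array of genes that were higher in triple K5Cre, with Elf5 and Epcam, which were not called; each point is an array, bars are group means, and triple K5Cre is left of Bcat-only for each gene. Irx2 separates the groups completely (9.44 to 10.90 against 7.15 to 8.52), while Elf5 and Epcam overlap.

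Smaller differences with less spread came next. Wdfy1, an endosomal protein, was at 7.85 to 9.27 (median 8.72) in triple K5Cre, against 6.70, 6.97, 6.58, 6.62 and 6.53 in Bcat-only arrays. It was at 7.8 to 8.86 in normal gland. It had the smallest p of the higher genes (1.97 ± 0.26, 3.91-fold, adjusted p = 2.44e-05), was called in all 13 fits, and was called against the masses alone (adjusted p = 0.00269) and the ventral tumours alone (adjusted p = 0.0088). The mitochondrial dehydrogenase Hsd17b10 was higher by 2.71-fold, the tRNA-modifying Cdk5rap1 by 2.46-fold and the ephrin receptor Ephb4 by 2.28-fold. The tRNA-modifying Qtrt1 was higher by 2.17-fold, Bmyc by 2.01-fold, the haem enzyme Ppox by 1.85-fold and the RNA-binding Stau2 by 1.84-fold. All 7 had groups that did not overlap, with adjusted p-values of 0.00891 to 0.0148. Qtrt1, Ppox and Stau2 were called in all 13 fits, although 1 of the 3 probe sets of Ppox had the opposite sign. Among those 13 fits the other 4 lost their call in the fit without Bcat-only array 4 (adjusted p = 0.0509 to 0.0707). None of the 7 was called against the masses alone (adjusted p = 0.0629 to 0.278) or the ventral tumours alone (adjusted p = 0.14 to 0.256).

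Luminal and milk genes varied widely among the triple K5Cre samples. Of 13 luminal genes Kit alone was called, 10 had a positive difference and the median was 1.09. The luminal list mean was 9.20 to 11.45 in triple K5Cre and 8.59 to 9.79 in Bcat-only, with triple K5Cre arrays 1, 2, 6 and 7 above the Bcat-only range. Pgr, the progesterone receptor, named after its values were seen, was at 6.72 to 11.62 in triple K5Cre, against 3.46, 4.45, 4.79, 6.70 and 5.84 in Bcat-only arrays. The groups only just did not overlap, and the difference of 3.13 ± 1.01 was not called (adjusted p = 0.0733). Esr1, the oestrogen receptor, was at 4.74 to 9.95 in triple K5Cre, against 8.51 to 10.25 in Bcat-only (-1.54 ± 0.90, adjusted p = 0.336). Krt8 and Krt18, the paired keratins of simple epithelium, differed by 0.31 ± 0.63 and 0.62 ± 0.64, and Epcam by 1.20 ± 0.58 (adjusted p = 0.83, 0.628 and 0.235). Elf5, the driver of the alveolar lineage, named after its values were seen, differed by 2.24 ± 1.08 (adjusted p = 0.234).

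No milk protein gene was called among 10 (median 1.28, lowest adjusted p 0.117). Triple K5Cre array 1 had a list mean of 13.03 and the other 7 had 4.87 to 8.25, against 4.34 to 7.14 in Bcat-only. Csn3, kappa casein, was at 6.88 to 14.41 in triple K5Cre, against 3.30, 9.54, 8.79, 4.69 and 9.59 in Bcat-only arrays. Krt5, whose promoter gives K5Cre its name, was at 5.74 in triple K5Cre array 2 and at 9.98 to 12.35 in the other 7, against 11.91, 12.38, 12.40, 12.75 and 12.56 in Bcat-only arrays. Its difference of -1.81 ± 0.77 was not called (adjusted p = 0.176). Krt14, the partner of Krt5, was at 7.37 to 13.40 in triple K5Cre, against 13.35 to 13.85 in Bcat-only (-2.47 ± 1.01, adjusted p = 0.158). None of the 14 basal and myoepithelial genes was called (median -0.34).

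Of the 9 measured Hoxb genes 4 were lower in triple K5Cre, against 1.40% of all genes. Hox genes encode factors that set position along the body axis, and the Hoxb cluster lies on chromosome 11. Hoxb5 was at 3.36 to 3.79 (median 3.6) in triple K5Cre, against 7.19, 6.15, 6.57, 8.20 and 5.62 in Bcat-only arrays (-3.23 ± 0.41, adjusted p = 1.16e-05). Hoxb6 was at 3.11 to 3.98 (median 3.62) in triple K5Cre, against 7.98, 7.51, 8.24, 8.59 and 6.89 in Bcat-only arrays (-4.26 ± 0.60, adjusted p = 9.43e-05). Hoxb9 was at 6.14 in triple K5Cre array 5 and at 4.05 to 4.62 in the other 7, against 8.74, 8.18, 8.71, 9.61 and 7.31 in Bcat-only arrays (-3.97 ± 0.61, adjusted p = 0.000253). The groups of these 3 genes did not overlap, and each was called in all 13 fits. They were also called against the masses alone (differences of -3.36, -4.18 and -3.93, adjusted p of 0.00117, 0.00968 and 0.0159) and against the ventral tumours alone (-3.09, -4.35 and -4.01, adjusted p of 0.00104, 0.00709 and 0.0154).

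Hoxb13, at the end of the cluster, was at 3.16 to 3.83 (median 3.36) in triple K5Cre, against 3.68, 7.09, 7.41, 6.26 and 4.45 in Bcat-only arrays. It was lower (-2.24 ± 0.55, adjusted p = 0.0244), but Bcat-only array 1 lay within the triple K5Cre range and the adjusted p was 0.114 without Bcat-only array 4. Hoxb2, Hoxb3 and Hoxb4, named after their values were seen, were not called (-1.10 ± 0.62, -1.08 ± 0.64 and -0.44 ± 0.32, adjusted p = 0.312, 0.345 and 0.462). Hoxb7, which lies between Hoxb9 and Hoxb6, was at 3.16 to 3.77 in triple K5Cre and 3.15 to 3.38 in Bcat-only, at the low end of the scale in both groups (0.15 ± 0.10, adjusted p = 0.401). The Hox list had 31 measured genes, with 4 called lower, none called higher and a median of -0.06. No measured gene of the Hoxa, Hoxc or Hoxd clusters (9, 7 and 8 genes) was called. In normal mammary gland Hoxb5 was at 3.48 to 4.65, Hoxb6 at 3.76 to 4.75 and Hoxb9 at 4.64 to 4.88, nearer to triple K5Cre than to Bcat-only. Quadruple arrays reached into the Bcat-only range, with highest values of 6.17 for Hoxb5, 7.62 for Hoxb6 and 8.36 for Hoxb9 and medians of 3.84, 3.70 and 4.52. The promoter windows of Hoxb5, Hoxb6, Hoxb9, Irx1 and Sox10 are not shown.

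**Figure D3:**
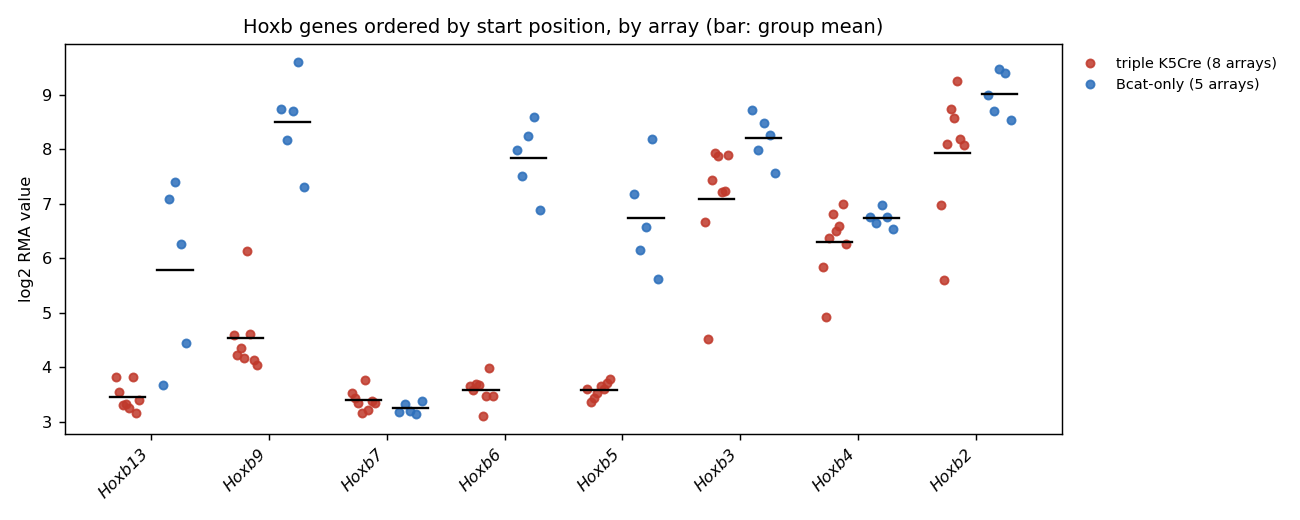
Log2 RMA value (vertical axis) of measured Hoxb genes in each array, ordered along the horizontal axis by start position on chromosome 11, with triple K5Cre left of Bcat-only for each gene; each point is an array and bars are group means. Hoxb5, Hoxb6 and Hoxb9 do not overlap between the groups, Hoxb13 overlaps in 1 Bcat-only array, and Hoxb7 is near 3 in all arrays.

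The largest falls were those of Ifi202b and Tslp. Ifi202b, an interferon-inducible protein whose level is known to differ between inbred strains, was at 3.70 to 7.28 (median 5.14) in triple K5Cre, against 11.03, 10.87, 11.01, 11.94 and 11.57 in Bcat-only arrays. It was lower by 61.9-fold without overlap (-5.95 ± 1.17, adjusted p = 0.00587) and was called in all 13 fits. Whether strain plays a part in this difference was not tested. Tslp, an epithelial cytokine that acts on dendritic cells, was at 2.84 to 5.78 (4.13 ± 1.07, SD, n = 8) in triple K5Cre, against 9.78 ± 1.13 (SD, n = 5) and a lowest array of 8.09 in Bcat-only. It was lower by 52.8-fold without overlap (-5.72 ± 1.33, adjusted p = 0.0183, highest 0.0824 without Bcat-only array 4). H60c, a ligand of the NKG2D receptor in skin, was at 3.55 to 7.04 in triple K5Cre, against 8.12 to 10.41 in Bcat-only (-4.48 ± 1.11, adjusted p = 0.0263, highest 0.123 without Bcat-only array 4). Il24, a cytokine of the IL-10 family, named after its values were seen, was at 3.59 to 4.79 in triple K5Cre, against 6.31, 9.32, 8.37, 7.02 and 9.82 in Bcat-only arrays (-4.11 ± 0.93, adjusted p = 0.017, highest 0.071 without Bcat-only array 5).

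Prl8a9, Prl8a6 and Serpinb6c were lower in triple K5Cre. Prl8a9, a prolactin family hormone, was at 2.20 to 2.86 (median 2.54) in triple K5Cre, against 5.94, 8.30, 8.20, 10.23 and 7.44 in Bcat-only arrays (-5.65 ± 1.18, 50.1-fold, adjusted p = 0.00972). Prl8a6 was at 2.70 to 3.07 (median 2.87) in triple K5Cre, against 8.02, 5.17, 6.93, 10.39 and 5.41 in Bcat-only arrays (-4.44 ± 0.89, 21.7-fold, adjusted p = 0.00685). Neither overlapped, the triple K5Cre arrays were near the low end of the scale, and Bcat-only array 4 was the highest for both. Without that array the adjusted p was 0.0757 for Prl8a9 and 0.0824 for Prl8a6. Serpinb6c, a clade B serine protease inhibitor, was at 3.82 to 4.48 (median 3.98) in triple K5Cre, against 10.30, 9.45, 8.17, 9.77 and 9.52 in Bcat-only arrays (-5.43 ± 1.07, 43.2-fold, adjusted p = 0.00587). It was called in all 13 fits.

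Families were counted after these values had been seen. Of 17 measured Prl genes 4 were lower (Prl7a1, Prl7b1, Prl8a6 and Prl8a9), of 7 pregnancy-specific glycoproteins 2 (Psg18 and Psg28), of 10 granzymes 3 (Gzmc, Gzmd and Gzme) and of 18 Serpinb genes 6. Of 5 Ces2 carboxylesterases 2 were lower (Ces2e and Ces2f). None of these families had a member called higher. Over all genes 1.40% were called lower. The fall of Prl7a1 was small, with differences of -0.41 to -0.28 over the 13 fits that each left out 1 array. Single arrays decided the counts. Without Bcat-only array 4 no Prl, granzyme or Ces2 gene was called and 1 Serpinb gene was, and without Bcat-only array 5 no pregnancy-specific glycoprotein was called. Members of these families are similar in sequence, so a probe set may also read a relative, and the genes within a family are not independent. Gzmc was at 2.75 to 4.87 in triple K5Cre, against 5.69, 6.97, 8.08, 6.37 and 5.86 in Bcat-only arrays (-2.99 ± 0.73, adjusted p = 0.0246, highest 0.0824 without Bcat-only array 4). Ces2f was at 3.16 to 4.66 in triple K5Cre, against 6.91 to 8.79 in Bcat-only (-3.84 ± 0.81, adjusted p = 0.0109, highest 0.0757 without Bcat-only array 4). Along the chromosomes 22 runs of neighbouring measured genes were called in the same direction, 7 higher and 15 lower, and several of them were such family pairs. The runs held 45 genes, and how many runs would arise by chance was not determined.

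Akr1c19 and Fgfbp3 were lower with little spread between triple K5Cre arrays. Akr1c19, an aldo-keto reductase, was at 2.55 to 3.76 (median 2.79) in triple K5Cre, against 4.88, 5.68, 5.17, 7.99 and 5.13 in Bcat-only arrays. It had the smallest p of all genes (-3.00 ± 0.33, 7.99-fold, adjusted p = 1.6e-06), from a spread estimated over all groups. Its SD was 0.41 in triple K5Cre and 1.28 in Bcat-only, so this SE may understate the spread between Bcat-only arrays. Fgfbp3, which binds FGFs, was at 4.5 to 6.07 (median 5.22) in triple K5Cre, against 9.62, 8.94, 8.99, 10.75 and 8.64 in Bcat-only arrays (-4.26 ± 0.51, 19.1-fold, adjusted p = 4.25e-06). Both were called in all 13 fits, against the masses alone and against the ventral tumours alone. Brinp3, a protein of neural tissue, was at 2.68 to 4.55 in triple K5Cre, against 7.52, 8.51, 9.13, 6.97 and 7.95 in Bcat-only arrays (-4.53 ± 0.75, adjusted p = 0.00121). Calcb, the neuropeptide CGRP beta, was at 2.95 to 5.92 in triple K5Cre, against 6.80 to 11.02 in Bcat-only (-4.5 ± 1.03, adjusted p = 0.0177). Brinp3 and Calcb were called in all 13 fits and neither overlapped, but Calcb was not called with each animal as a single mean (adjusted p = 0.0542).

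Olr1, Lrat, Degs2 and Bcl2l15 were lower as well. The oxidised lipoprotein receptor Olr1 was at 3.01 to 5.85 in triple K5Cre and 8.03 to 9.36 in Bcat-only (-4.48 ± 1.04, adjusted p = 0.0183, highest 0.0824 without Bcat-only array 4). Lrat, which esterifies retinol and was named after its values were seen, was at 3.22 to 4.48 in triple K5Cre and 6.21 to 9.49 in Bcat-only (-4.08 ± 0.89, adjusted p = 0.0136), and was called in all 13 fits. Degs2, a sphingolipid enzyme of epidermis, and Bcl2l15, a Bcl2 family member, were lower by 18- and 18.1-fold without overlap (adjusted p = 0.0363 and 0.0482), but were called in only 5 and 2 of the 13 fits. The vitamin D hydroxylase Cyp2r1 was at 2.25 to 3.22 in triple K5Cre and 3.56 to 4.63 in Bcat-only. Both groups were near the low end of the scale. Cyp2r1 was lower by 2.82-fold (adjusted p = 0.0014), without overlap and in all 13 fits. Pla2r1, the phospholipase A2 receptor, was lower by 2.62-fold on its brightest probe set (adjusted p = 0.0014), and its other probe set had the opposite sign.

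Of 9 measured neutrophil genes 3 were called lower in triple K5Cre, against 1.40% of all genes, and 8 differences were negative (median -2.97). In bulk tissue fewer cells of a type and less RNA per cell cannot be told apart. The list mean was 6.27 to 9.21 in triple K5Cre and 10.06 to 10.90 in Bcat-only, so that all 8 triple K5Cre arrays lay below all 5 Bcat-only arrays. Ngp, a granule protein of immature neutrophils, was at 3.83 to 5.07 (median 4.18) in triple K5Cre, against 9.09, 10.01, 9.08, 8.44 and 7.73 in Bcat-only arrays (-4.40 ± 0.67, adjusted p = 0.000253). Mmp8, the neutrophil collagenase, was at 3.58 to 6.08 (median 4.23) in triple K5Cre, against 8.08, 9.37, 8.50, 9.03 and 7.45 in Bcat-only arrays (-3.97 ± 0.61, adjusted p = 0.000253). Cxcr2, a receptor for neutrophil chemokines, was at 5.30 to 7.65 in triple K5Cre, against 7.91 to 8.93 in Bcat-only (-2.11 ± 0.50, adjusted p = 0.0213, highest 0.0767 without Bcat-only array 4). Ngp and Mmp8 were called in all 13 fits and against each kind of Bcat-only lesion alone.

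The calprotectin genes S100a8 and S100a9, made by neutrophils and by inflamed keratinocytes and named after their values were seen, were not called. S100a8 was at 6.66 to 13.69 in triple K5Cre, against 13.53 to 14.06 in Bcat-only (-2.97 ± 1.54, adjusted p = 0.269). S100a9 differed by -3.20 ± 1.83 (adjusted p = 0.324), and 2 triple K5Cre arrays lay within the Bcat-only range for each. Other myeloid genes were lower outside that list. Chil3, a chitinase-like protein of macrophages and neutrophils, was at 8.99 in triple K5Cre array 7 and at 3.82 to 5.82 in the other 7, against 9.72, 11.17, 10.02, 10.08 and 9.21 in Bcat-only arrays (-4.63 ± 0.91, adjusted p = 0.0055). The myeloid Ifitm6, the chemokine-like Prok2 and the basophil protease Mcpt8 were named after their values were seen. They differed by -3.92 ± 0.68, -1.75 ± 0.31 and -1.84 ± 0.27 (adjusted p = 0.00214, 0.00243 and 0.000158), and were called in all 13 fits.

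None of the other immune lists had a called member. The median was -0.95 for 12 macrophage genes, with all 12 negative, and -0.92 for 12 inflammatory cytokines, also all negative. It was -0.89 for 6 genes of MHC class II, -0.87 for 10 T and NK cell genes, -0.73 for 5 mast cell genes, 0.06 for 8 B cell genes and -0.23 for 15 interferon-stimulated genes. The interferon list mean was 9.54 in Bcat-only array 5 and 7.83 to 8.22 in the other 4.

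Differences of stromal genes were negative, with few calls. Of 11 fibroblast genes 2 were lower, against 1.40% of all genes, and all 11 differences were negative (median -1.26). Pi16, a marker of adventitial fibroblasts, was at 8.77 in triple K5Cre array 7 and at 4.95 to 7.22 in the other 7, against 8.19 in Bcat-only array 5 and 10.23 to 11.46 in the other 4 (-3.71 ± 0.65, adjusted p = 0.00224). The groups overlapped by 1 array on each side, and Pi16 was called in all 13 fits. Dpp4, a peptidase of fibroblast progenitors, was at 4.92 to 7.32 in triple K5Cre, against 9.51, 8.65, 8.34, 8.06 and 9.80 in Bcat-only arrays (-2.96 ± 0.70, adjusted p = 0.021, highest 0.0772 without Bcat-only array 5). Prg4, the joint lubricant proteoglycan, named after its values were seen, was lower by 13.5-fold (-3.75 ± 0.73, adjusted p = 0.00518). All 13 collagen and matrix genes had a negative difference (median -1.56), but none was called. Col6a1 (-2.02 ± 0.58) and Postn (-1.56 ± 0.47) had the smallest p in that list, with an adjusted p of 0.05 when rounded, just over the threshold, and of 0.0606. Of 12 matrix metalloproteinases and inhibitors 11 were negative (median -1.64) and none was called. Mmp2, a gelatinase of stromal cells, did not overlap between the groups (-1.96 ± 0.60, adjusted p = 0.0643).

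No member was called among 12 endothelial genes (median -0.68) or 11 genes of mesenchymal transition (median -1.06). Markers of tissue around the gland varied between arrays. The adipocyte list mean was 4.87 to 8.81 in triple K5Cre and 5.45 to 6.70 in Bcat-only, with 5 triple K5Cre arrays above the Bcat-only range. None of 11 adipocyte genes was called, and 10 differences were positive (median 1.05). The skeletal muscle list mean was 11.46 in triple K5Cre array 7 and 4.36 to 5.13 in the other 7, against 4.96, 8.60, 7.91, 5.21 and 4.96 in Bcat-only arrays. None of 15 muscle genes was called, and 12 differences were negative (median -0.66). The part of muscle or fat content in the differences was not tested gene by gene. With the adipocyte list mean as a covariate 864 genes were called and 474 of the 481 calls were kept.

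Squamous genes were high in every Bcat-only array and in only some triple K5Cre arrays. The list of 24 cornified envelope and suprabasal keratin genes had 23 negative differences and a median of -2.66, and none was called (lowest adjusted p 0.137). Its mean was 10.83, 10.08, 10.02 and 10.80 in triple K5Cre arrays 3, 4, 5 and 8, against 9.64 to 11.35 in Bcat-only. In triple K5Cre arrays 1, 2, 6 and 7 it was 5.34, 4.44, 5.63 and 7.45, below every Bcat-only array. Sprr1b, a cornified envelope protein, was at 2.10 to 10.34 (median 5.66) in triple K5Cre, against 11.64, 11.97, 11.39, 10.96 and 11.99 in Bcat-only arrays (-5.46 ± 2.13, adjusted p = 0.137). Krt16, a wound keratin, was at 4.64 to 12.31 in triple K5Cre, against 12.81 to 13.68 in Bcat-only (-4.80 ± 1.87, adjusted p = 0.137). Both had groups that did not overlap, as did 4 of the 24 genes in all, against 5.19% of all genes. The spread among triple K5Cre arrays was nonetheless as large as the difference. The 9 measured Sprr genes had a median of -3.82 with none called.

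The same 4 triple K5Cre arrays had the highest list means of Wnt targets, at 7.90, 8.39, 9.30 and 7.89, against 5.91 to 6.55 in arrays 1, 2, 6 and 7. Hair follicle genes had 1 of 17 called, Padi3, which modifies hair proteins and was lower without overlap (-3.56 ± 0.95, adjusted p = 0.0383, called in 5 of 13 fits). The hair follicle list mean was 8.25 in triple K5Cre array 5 and 4.34 to 6.18 in the other 7, against 5.43 to 8.17 in Bcat-only. That array was also the highest in the Wnt target genes Lef1, Dkk4 and Sp5.

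**Figure D4:**
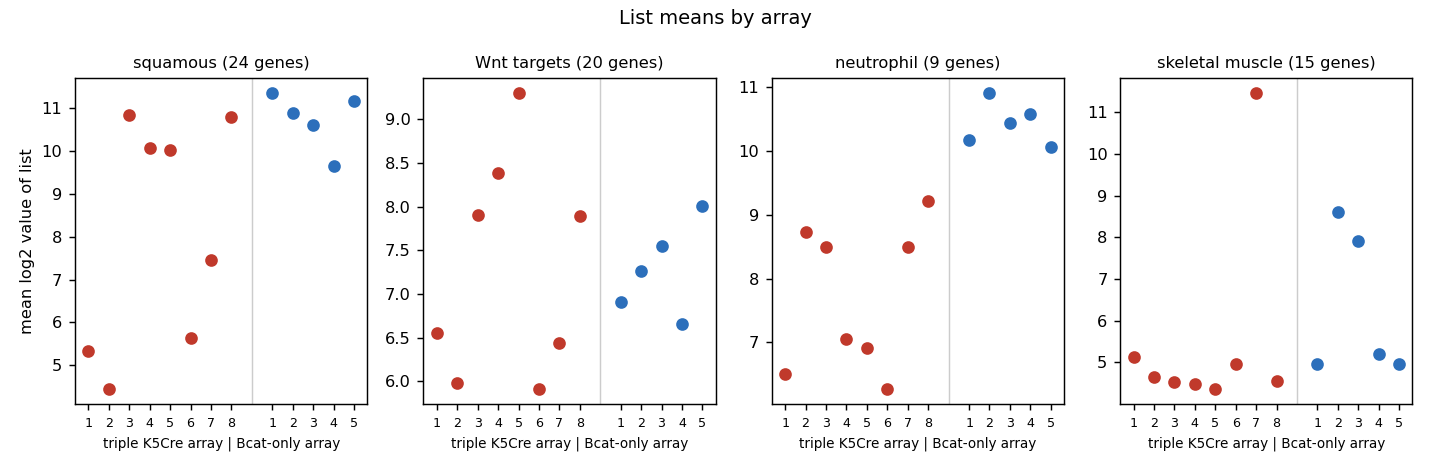
Mean log2 RMA value (vertical axis) of the members of 4 gene lists in each numbered array (horizontal axis), triple K5Cre in red left of Bcat-only in blue. Neutrophil means do not overlap (6.27 to 9.21 against 10.06 to 10.90), squamous means split the triple K5Cre arrays from 4.44 to 10.83, and 1 triple K5Cre array stands out for muscle at 11.46.

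Of 19 mitosis genes 2 were called higher, 18 differences were positive and the median was 1.05. Over all genes 1.25% were called higher. Cenpe, a kinetochore motor, was at 6.55 to 8.61 (median 7.79) in triple K5Cre, against 5.44, 6.26, 6.83, 5.48 and 6.31 in Bcat-only arrays (1.84 ± 0.49, adjusted p = 0.0361, highest 0.146 without Bcat-only array 4). Nusap1, a spindle protein, was higher by 2.89-fold (1.53 ± 0.39, adjusted p = 0.029, highest 0.122 without Bcat-only array 4). Each had 1 triple K5Cre array within the Bcat-only range. Of 21 replication genes 1 was called, Rfc4, a clamp loader subunit (1.3 ± 0.33, adjusted p = 0.0274, highest 0.122 without Bcat-only array 4), and the median was 0.77 with 20 positive. Mki67, the proliferation marker, was at 9.25 to 10.97 in triple K5Cre, against 8.50 to 9.73 in Bcat-only (1.05 ± 0.37, adjusted p = 0.0978). In the list of p53 targets 1 of 13 was lower, Pmaip1, which encodes the death-promoting protein Noxa (-3.10 ± 0.79, 8.55-fold, adjusted p = 0.0294, highest 0.117 without Bcat-only array 4). Its values were 6.70 to 8.28 in triple K5Cre, against 9.76, 10.11, 10.10, 10.92 and 10.75 in Bcat-only arrays, without overlap. None of 7 cell cycle inhibitors was called, and Cdkn2a differed by -0.54 ± 0.76 (adjusted p = 0.741).

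Signalling lists other than Wnt had few calls. Phlda1, a pleckstrin-domain protein induced by ERK signalling, was the only call among 12 ERK feedback genes (median 0.39). It was at 11.12 to 12.87 in triple K5Cre, against 9.25, 9.77, 9.88, 10.56 and 10.06 in Bcat-only arrays, without overlap (1.72 ± 0.43, adjusted p = 0.0268, highest 0.0602 without Bcat-only array 4). Dhh, a hedgehog ligand, was the only call among 9 hedgehog genes (-1.52 ± 0.28, adjusted p = 0.00406, highest 0.0602 without Bcat-only array 4), and its other probe set had the opposite sign. None of 12 EGF family genes (median -0.64), 13 FGF genes (0.01), 13 Notch genes (-0.12), 14 hypoxia and glycolysis genes (-0.12) or 16 junction genes (-0.27) was called. None of 5 melanocyte genes (-0.12), 6 brown fat genes (0.13) or 4 sex-linked genes (-0.02) was called, and of 3 measured Schwann cell genes Sox10 was the only call.

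**Figure D5:**
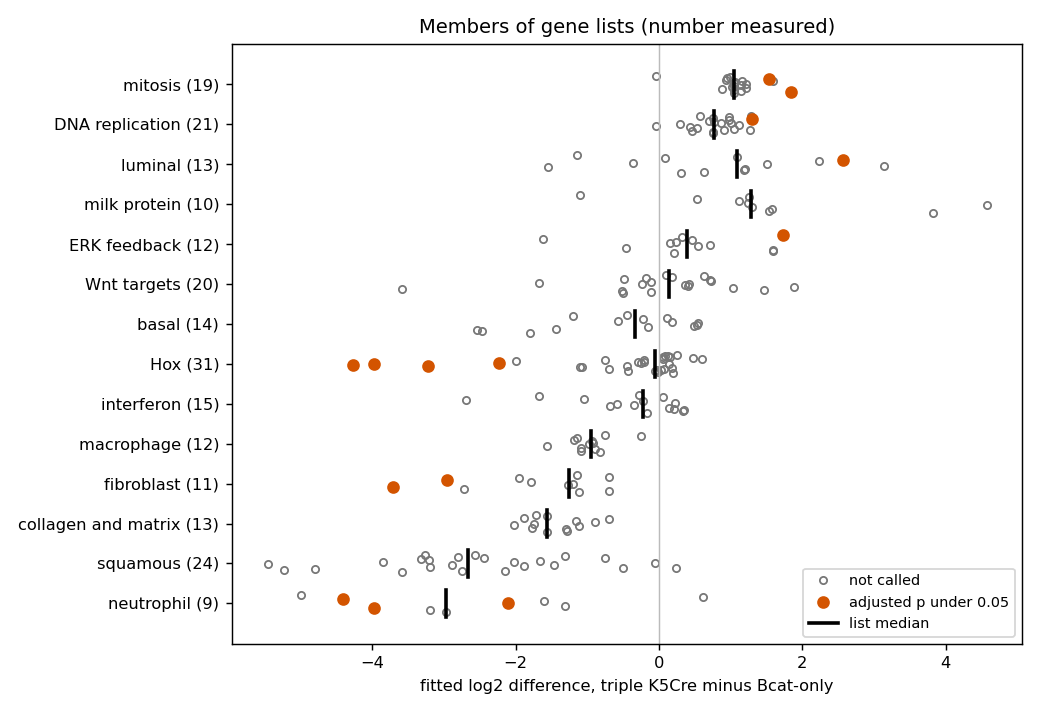
Fitted log2 difference, triple K5Cre minus Bcat-only (horizontal axis), of each measured member of 14 gene lists; filled points were called and black bars are list medians. Of the medians drawn, neutrophil (-2.97) and squamous (-2.66) lie farthest to the left and milk protein (1.28) and luminal (1.09) farthest to the right, while the 4 called Hox genes stand apart from their list.

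The 8 genes called in the pooled comparison, in all 13 fits and against each kind of Bcat-only lesion alone were Hoxb5, Hoxb6, Hoxb9, Akr1c19, Fgfbp3, Ngp and Mmp8, all lower, and Wdfy1, higher. Against the masses alone 47 genes were called, and against the ventral tumours alone 34, with 37 and 32 of these among the 481. Nnt, a mitochondrial transhydrogenase that carries a known deletion in the C57BL/6J substrain, was at 7.58 to 9.06 (median 8.49) in triple K5Cre, against 5.78, 7.35, 7.44, 7.46 and 7.19 in Bcat-only arrays. The groups did not overlap, and its difference of 1.29 ± 0.37 was at the threshold but not called. Strain background, which the C57 tag may describe, and genotype cannot be told apart.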

How the data were processed

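Total RNA of 39 mouse tissue samples was labelled for Affymetrix arrays by an in vitro transcription kit, as the labels' protocols state. The deposited values are log2 values of 45101 probe sets, made by the authors with RMA, per the submitters' processing notes; no version of RMA is given in these sources. RMA corrects background, equalises the arrays and summarises the probes of a probe set, so a low log2 value is not separated from background and large falls may be understated. Array medians were 5.10 to 5.27. Precision is limited by the number of arrays.

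Gene names came from the annotation of the platform, updated through a RefSeq table of GRCm38.p6. Of them 34958 carried 1 gene, 932 several and 9211 none, and only the first were used. Each of 18194 genes took its brightest probe set; 100 genes had only a probe set marked as cross-hybridising.

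All 39 arrays entered 1 limma fit with a mean per group, the animal as a random block (duplicateCorrelation, correlation 0.299), an intensity trend in eBayes and Benjamini-Hochberg adjustment over all genes. Since arrays of 1 animal are weighted jointly, fitted differences can depart from differences of plain means. The fit takes 1 spread per gene over all groups. P-values can therefore be too small where Bcat-only arrays vary more than the others, as for Akr1c19 and Hoxb5. The SD of Hoxb5 was 0.14 in triple K5Cre and 0.99 in Bcat-only. The tools were limma 3.58.1 under R 4.3.3, and pandas 2.3.3, numpy 2.4.6 and matplotlib 3.10.9 under Python 3.11.15. On simulated data of 18194 genes the fit called 63 of 100 genes changed by 1 log2 unit and 88 of 100 changed by 2. It also called 5 of the unchanged genes. The simulation gave a gene the same spread in all groups. It therefore does not cover genes of unequal spread, such as Prl8a6 (SD 0.11 in triple K5Cre, 2.14 in Bcat-only).

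The comparison, its members and the gene lists were chosen with earlier results of these data known, so lists are described by counts and medians and were not tested. The genes named are the 15 largest called rises and falls, the 10 called genes of smallest p in each direction with groups that do not overlap, up to 4 called rises and falls per list or the 2 smallest p, and a fixed set of markers. Riken, clone and predicted names were skipped. Genes said to be named after their values were seen, Prl7a1, Prl7b1, Psg18, Psg28, Gzmc, Gzmd, Gzme, Ces2e, Ces2f, Krt1, Krt10, Dkk4 and Sp5 fall outside this rule. Alternatives tried were no block, animal means, the 13 arrays alone, a mean per lesion label, each lesion label alone, leaving out genes of low mean, cyclic loess, array weights, the mean of probe sets, eBayes without a trend, an adipocyte covariate and leaving out each array. Fits of every probe set and without triple K5Cre arrays 2 and 7 were added after seeing the data.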

Additional observations from a re-analysis of the deposited data

Results flagged for a closer look

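In 35 of 314 groups of values 1 array lay far from the others of its group; chance gives about 1 in 20 groups. Triple K5Cre array 7 was low for Col9a3 (6.86), Epha7 (3.99), Emid1 (7.02), Sntb1 (7.26) and the Schwann cell list mean (6.99), and high for Chil3 (8.99), Mcpt8 (5.08), Prg4 (8.09), the muscle gene Myh1 (11.09), the muscle list mean (11.46) and the mast cell list mean (5.71). The other 7 triple K5Cre arrays had Myh1 at 2.24 to 3.74 and muscle list means of 4.36 to 5.13.

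Triple K5Cre array 2 was low for Krt5 (5.74), Hoxb3 (4.52), Ryk (8.79) and Xist (7.0), the RNA of the inactive X chromosome, and for the basal (7.08), FGF (5.08) and sex-linked (3.73) list means. The other 7 had Xist at 11.43 to 12.25. The normal gland of the same animal as array 2 also had a low sex-linked list mean, at 3.42. The other normal glands had 5.06 to 5.07.

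Triple K5Cre array 5 was high for Lef1 (8.32), Dkk4 (12.37), Sp5 (9.41), Hoxb9 (6.14) and the hair follicle list mean (8.25). The other 7 had Dkk4 at 3.61 to 7.44 and Sp5 at 4.13 to 6.50.

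Triple K5Cre array 1 was high for the milk protein list mean (13.03) and Lrat (4.48) and low for the EGF family list mean (5.78). Triple K5Cre array 3 was high for H60c (7.04) and Hmx2 (3.67).

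Among Bcat-only arrays, array 1 was low for Krt8 (10.44) and Nnt (5.78). Array 4, a mass, was high for Akr1c19 (7.99) and Hmx3 (4.99) and low for Krt1 (10.38) and Krt10 (10.42), keratins of differentiating epidermis, which the other 4 had at 12.82 to 13.42 and 13.12 to 13.70. Array 5 was high for the interferon list mean (9.54).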

How the results depend on the processing

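The 481 calls (227 higher, 254 lower) varied with the setting, and 32 of them were kept against the ventral tumours alone, 37 against the masses alone, 63 without Bcat-only array 4 and 196 with animal means. Without the block 1441 genes were called (777 higher, 664 lower), with animal means 204 (54 and 150), with array weights 4019 (2056 and 1963) and with the adipocyte covariate 864 (430 and 434). Against the masses alone 47 were called (3 and 44) and against the ventral tumours alone 34 (3 and 31). Cyclic loess called 356 higher. Without triple K5Cre arrays 2 and 7, chosen after seeing the data, 755 were called (359 and 396). Leaving out 1 array gave 64 to 868 calls, 12 to 417 higher and 52 to 451 lower. The 13 arrays alone called 492 genes, of which 273 were among the 481, and without genes of low mean 59.7% of the calls were higher, against 47.2%. With the mean of its probe sets Ctnnb1 reversed, to -1.84 (adjusted p = 0.00888). Of the called genes Nrxn3, named after its values were seen, changed sign in that setting (0.03, against -0.83). The other reversals listed were of named genes with no call. Axin2 turned to 0.01 and Krt8 and Krt18 to -0.38 and -0.12 with array weights, and Krt8 to -0.12 with the masses alone. Lef1 turned to 0.05 with the mean of probe sets, 0.09 without Bcat-only array 5 and 0.00 without triple K5Cre array 6, in a range of -0.55 to 0.09 over the fits without 1 array. Without triple K5Cre arrays 2 and 7 Lef1 was at 0.04, Krt8 at -0.02 and Xist at 0.04, and without triple K5Cre array 5 Sp5 was at -0.17, in a range of -0.17 to 0.71 over the fits without 1 array. The causes were not tested. No paired analysis was possible because triple K5Cre and Bcat-only share no animal identifier.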

Other observations

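Several genes that were low in all triple K5Cre arrays were high in triple Bcat array 1, which entered no comparison here. Prl8a9 was at 9.52, 4.43 and 2.82 in triple Bcat arrays 1 to 3, against 2.20 to 2.86 in triple K5Cre. Serpinb6c was at 10.40, 6.25 and 4.83, against 3.82 to 4.48, and Ifi202b at 10.12, 8.59 and 7.02, against 3.70 to 7.28. Hoxb5 was at 3.53, 4.54 and 4.31 in triple Bcat arrays, against 3.36 to 3.79 in triple K5Cre, and Hoxb6 at 3.53, 4.13 and 3.93, against 3.11 to 3.98. These Hoxb values were below every Bcat-only array. Mia was at 4.20, 9.34 and 8.61 in triple Bcat arrays, against 7.83 to 12.03 in triple K5Cre. Triple Bcat arrays 2 and 3 share an animal, and these values were chosen after they were seen and were not tested.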
